A study of Mus musculus with 36 samples.

Results

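The tumour suppressor p53 and 9 genes of its pathway were followed across all groups of an RNA sequencing study of muscle stem cells (MuSCs, or satellite cells, which rebuild damaged muscle fibres) from mice. The 10 genes were chosen by gene symbol, with earlier results of these data known. Their counts beside the shares of all genes are therefore descriptive. All 10 were found among the 11337 genes of the table. They were Trp53 itself, its inhibitor Mdm2, the cell cycle genes Cdkn1a, Gadd45a and Ccng1, the cell death genes Bbc3 and Bax, the Akt inhibitor gene Phlda3, and the stress and nutrient genes Sesn1 and Trp53inp1.

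Each of the 36 libraries came from 1 male mouse of the strain labelled C56BL/6. In the wheel cohort, mice lived for 3 weeks with a running wheel that was free to turn or locked, and MuSCs were sorted as VCAM+, CD31-, CD45-, Sca1- and DAPI- cells. It held old free-wheel mice (O(+Ex), 18 months, 5 libraries), young free-wheel mice (Y(+Ex), 3 months, 3 libraries), old locked-wheel mice (O(-Ex), 18 months, 7 libraries) and young locked-wheel mice (Y(-Ex), 3 months, 6 libraries). In the Ccnd1 cohort every mouse, the controls too, carried Pax7_CreERT2 and the R26R_YFP reporter and received tamoxifen, and YFP+ DAPI- cells were sorted 6 weeks later. Its groups were Ccnd1 flox/flox (KO, 3 months, 5 libraries), Ccnd1 +/flox (HET, 3 months, 4 libraries), old Ccnd1 +/+ (old WT, 18 months, 3 libraries) and young Ccnd1 +/+ (young WT, 3 months, 3 libraries). The recombinase acts in cells that express Pax7, so a deletion of Ccnd1 is limited to the stem cells and their progeny.

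As background, p53 is a transcription factor that is held low by Mdm2, a ubiquitin ligase that marks it for degradation and is itself a p53 target gene. DNA damage and other stresses free p53 from Mdm2, and p53 then binds its sites and raises genes that stop the cell cycle, start cell death or change metabolism. Control is largely at the level of the protein, so the mRNA of Trp53 is not a measure of p53 activity, and most of its target genes also respond to other factors. In MuSCs, p53 and its target p21 are known for roles in quiescence, in survival on activation and in the decline of the cells with age.

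Values were RPKM (read counts divided by gene length and by library size) as adjusted by the authors. They summed to 273837 to 350969 per library, and 10426 to 10613 genes lay above 1 RPKM in each. They do not show how deeply a library was sequenced. The centred log2 values varied in 29 of 35 possible directions across the libraries, so that 6 directions were missing; the files and labels used here do not state how the values were adjusted. The share of a comparison that lay along them was 28.4% for age with a locked wheel, 61.2% for age in WT mice, 38.3% for KO against WT, 35.1% for HET against WT, and 12.0% and 10.2% for the wheel in old mice and in young mice. It was nil for age with a free wheel and for KO against HET. The tests took no account of the missing directions in any comparison, since all use the spread of the adjusted values within groups. If the adjustment lowered that spread, the limma p values are too small, which was not tested. Young WT against young locked-wheel libraries lay at 92.0% along these directions and old WT against old locked-wheel libraries at 96.0%, so the cohorts do not give independent measurements of age.

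The targeted gene Ccnd1 averaged 2.71 ± 0.495 RPKM in KO (n = 5), 7.18 ± 0.723 RPKM in HET (n = 4) and 11.7 ± 1.396 RPKM in young WT libraries (SD, n = 3). The satellite cell gene Pax7 lay at 14.2 to 32.5 RPKM and Vcam1 at 122 to 239.7 RPKM, against 9.11 to 28.8 RPKM for the endothelial gene Pecam1 and 0.289 to 1.26 RPKM for Pdgfra of fibro-adipogenic cells. The whole list of 4 fibro-adipogenic genes (Pdgfra, Ly6a, Dcn and Cd248) summed to 95.1 to 256 RPKM, and that of 5 endothelial genes to 49.2 to 98.9 RPKM. The myofibre gene Acta1 lay at 16.4 to 423 RPKM. The haematopoietic gene Cd68 lay at 4.48 to 14.5 RPKM, and the 3 measured haematopoietic genes summed to 22.7 to 84.1 RPKM. The HET libraries stood apart. The summed level of 4 keratinocyte genes (Krt5, Krt14, Krt10 and Krt1) was 52.7 to 145 RPKM in the 4 HET libraries, while the highest sum in any other library was 10.6 RPKM. All 4 HET libraries shared this, so no HET result could be computed without them, and the part of whatever carried these genes in HET results was not tested.

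Levels of the 10 genes spanned a wide range. Cdkn1a, which encodes the cyclin-dependent kinase inhibitor p21, averaged 280.5 RPKM over all libraries and Gadd45a, a growth arrest gene whose product binds p21 and PCNA, averaged 208 RPKM. Trp53 averaged 74.7 RPKM, Mdm2 24.7 RPKM, Bax 22.9 RPKM and Phlda3 12.8 RPKM. Ccng1 (cyclin G1) averaged 8.64 RPKM, Sesn1 (sestrin 1, an inhibitor of mTORC1) 7.72 RPKM, Trp53inp1 (a p53-induced gene of autophagy and cell death) 3.97 RPKM and Bbc3 (the BH3-only protein PUMA) 2.73 RPKM.

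**Figure D1:**
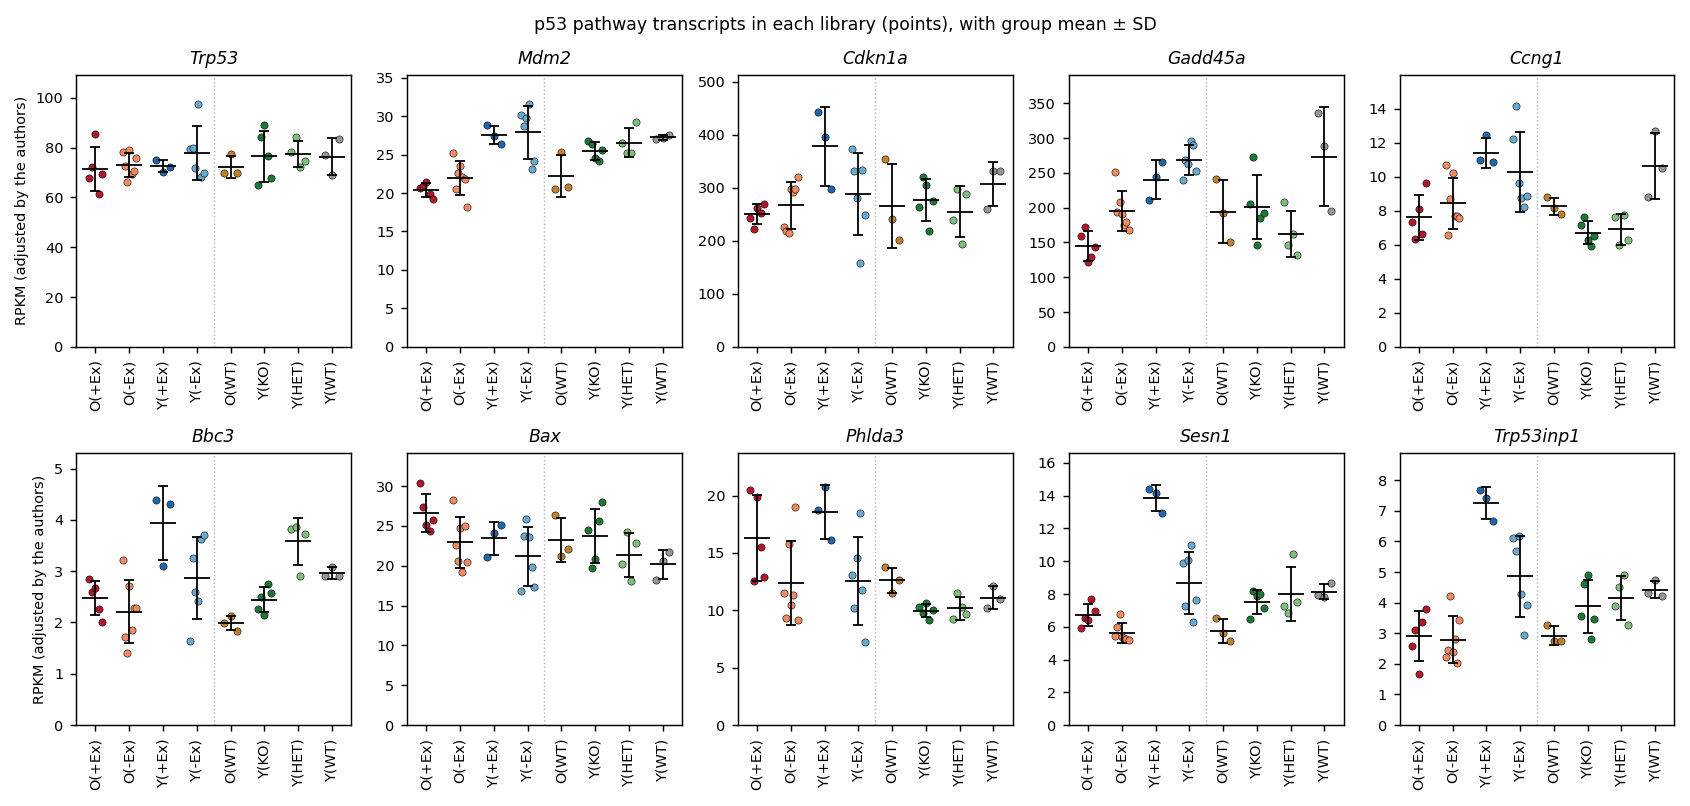
RPKM of each gene (vertical axes, linear, from 0) in each library (points) of the 8 groups, with the group mean and SD as bars; the dotted line separates the wheel cohort from the Ccnd1 cohort. Trp53 group means lie between 71.3 and 77.8 RPKM, while the 3 young free-wheel libraries are the highest in Sesn1 (12.9 to 14.4 RPKM) and stand at 6.67 to 7.68 RPKM in Trp53inp1.

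The order of the group means differed from gene to gene, but young free-wheel libraries had the highest mean of 6 genes (Cdkn1a, Ccng1, Bbc3, Sesn1, Phlda3 and Trp53inp1). Trp53 moved least: its group means ran from 71.3 RPKM in old free-wheel to 77.8 RPKM in young locked-wheel libraries, a ratio of 1.09, and no comparison called it. Trp53inp1 moved most, with group means of 7.26 RPKM in young free-wheel and 2.79 RPKM in old locked-wheel libraries, a ratio of 2.60. For Sesn1 that ratio was 2.46, for Bbc3 1.98, for Gadd45a 1.88 and for Phlda3 1.86. When the 8 groups were ordered by mean, the ranges of all 7 pairs of neighbours overlapped for 8 genes. For Sesn1 and Trp53inp1 they overlapped in 6 of 7 pairs, the exception being the highest group, young free-wheel, and the next.

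The promoter windows of RefSeq (build GRCm38.p6, 250 bases before to 50 after each start site) were searched for matches to the p53 half-site consensus. This consensus is a palindrome of 10 letters, which reads the same on both strands. Windows were given for 9 of the 10 genes, 13 windows in all. A half-site was found in 7 of the 9 genes, against 9.55% of all genes with a window and 8.36% of 32851 windows. A full site, taken as 2 adjacent half-sites (20 bases) with at most 1 letter off the consensus, was found in Cdkn1a and Ccng1, against 0.0883% of windows; this definition was chosen after the Cdkn1a window had been seen. These are matches of letters, not measured binding, and a response element further away would not be seen. The stretches around the matches are given below for Cdkn1a, Ccng1, Mdm2 and Sesn1, whose mRNA passed a test in some comparison, with the match in capitals; the Sesn1 match lies before the second of its 2 start sites. Gadd45a also passed and holds a half-site at bases 40 to 31 before its start site. That site lies inside the gene as GENCODE annotates it, and its stretch is not printed. Bax and Trp53, which passed in no comparison, hold a half-site too. Of the 2 genes without a half-site, Bbc3 passed in some comparison and Phlda3 in none. Trp53inp1 passed as well but had no window.
Cdkn1a (chr17:29090908-29090967, + strand): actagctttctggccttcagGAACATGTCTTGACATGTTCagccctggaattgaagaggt
Ccng1 (chr11:40755442-40755501, - strand): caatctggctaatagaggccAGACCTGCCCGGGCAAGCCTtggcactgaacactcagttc
Mdm2 (chr10:117710915-117710964, - strand): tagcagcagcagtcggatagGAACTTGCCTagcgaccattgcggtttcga
Sesn1 (chr10:41887246-41887295, + strand): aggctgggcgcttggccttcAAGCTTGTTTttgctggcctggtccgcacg
The Cdkn1a match covers bases 51 to 32 before the first of its 2 start sites, and the window of the second holds no half-site. The Ccng1 match covers bases 195 to 176 before its start site.

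Age was compared first in mice with a locked wheel, old against young. Mdm2, Gadd45a, Sesn1 and Trp53inp1 were lower in the old mice, and none of the 10 genes was called higher. By limma with Benjamini-Hochberg adjustment over all genes (called at an adjusted p under 0.05), 4 of 10 genes were thus called lower, where 17.8% of all genes were called lower and 38.3% were called in either direction. The median log2 change of the 10 genes was -0.31, against 0.01 for all genes. Every mouse is a separate replicate per the labels.

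Mdm2 had a lowest, median and highest value of 18.2, 22.04 and 25.2 RPKM in old locked-wheel mice, against 23.1, 29.2 and 31.5 RPKM in young locked-wheel mice. The ranges overlapped, with all 7 old mice below the young mean. The means were 21.96 ± 2.23 RPKM in old (SD, n = 7) and 27.9 ± 3.43 RPKM in young mice (SD, n = 6), a log2 change of -0.34 ± 0.08 (SE) with a limma adjusted p of 0.00165. Gadd45a had 167, 190.4 and 251 RPKM in old and 239.9, 266 and 296 RPKM in young locked-wheel mice. One old mouse reached the young range and the other 6 lay below it, and the log2 change was -0.47 ± 0.09 (limma adjusted p = 5.16e-04). Part of Gadd45a (337 exon bases) overlaps the antisense gene E230016M11Rik, which lay at 2.95 to 6.29 RPKM, so its values are uncertain to that extent.

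Sesn1 had 5.16, 5.39 and 6.80 RPKM (lowest, median and highest) in old and 6.28, 8.77 and 11.01 RPKM in young locked-wheel mice. All 7 old mice lay below the young mean and the ranges overlapped only at their ends. The log2 change was -0.61 ± 0.11, a 1.52-fold lower level (limma adjusted p = 2.39e-04). Trp53inp1 had 2.03, 2.45 and 4.21 RPKM in old and 2.95, 4.99 and 6.19 RPKM in young mice, again with all 7 old mice below the young mean. Its log2 change was -0.79 ± 0.20, or 1.73-fold lower (limma adjusted p = 0.00357). All 4 calls held with each of the 13 libraries left out in turn. No gene of the 10 had separate ranges in the 2 groups, where 12.4% of all genes did.

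The other 6 genes did not pass. Cdkn1a was at 214, 292 and 321 RPKM in old and 158, 307 and 374 RPKM in young locked-wheel mice, a log2 change of -0.08 with a 95% interval of -0.40 to 0.25. Ccng1 had a log2 change of -0.27 (limma adjusted p = 0.111) and Bbc3 one of -0.37 (limma adjusted p = 0.131). Trp53 differed by -0.08, Phlda3 by -0.01 and Bax, the pore-forming effector of mitochondrial cell death, by 0.12 on the log2 scale.

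Other measures moved with age in the same libraries. Of 25 immediate early and heat shock genes that respond to tissue dissociation, 13 were lower and none higher in old locked-wheel mice, and their summed level was 8326 to 10608 RPKM in old and 11285 to 13266 RPKM in young mice. The 5 measured myofibre genes summed to 37.7 to 145 RPKM in old and 109 to 614 RPKM in young mice, and of 19 measured cell cycle genes 1 was higher and 10 were lower. The satellite cell list had 5 of 10 genes lower and none higher. Some markers of other cells were higher. Of 4 fibro-adipogenic genes 2 were called higher. That list summed to 162 to 223 RPKM in old and 98.0 to 127 RPKM in young mice, without overlap. Also higher were 2 of 4 keratinocyte genes, 1 of 5 endothelial genes and 2 of 4 Schwann cell genes. The Schwann cell list summed to 24.3 to 31.9 RPKM in old and 19.1 to 28.8 RPKM in young mice. None of these 4 lists had a gene called lower. Pdgfra averaged 0.637 RPKM in old and 0.762 RPKM in young mice. No haematopoietic gene was called. The 3 measured ones summed to 27.2 to 58.0 RPKM in old and 22.7 to 66.8 RPKM in young mice. Their part in the changes of the 10 p53 pathway genes was not tested. In such bulk libraries, fewer cells of a type and less RNA per cell cannot be told apart.

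**Figure D2:**
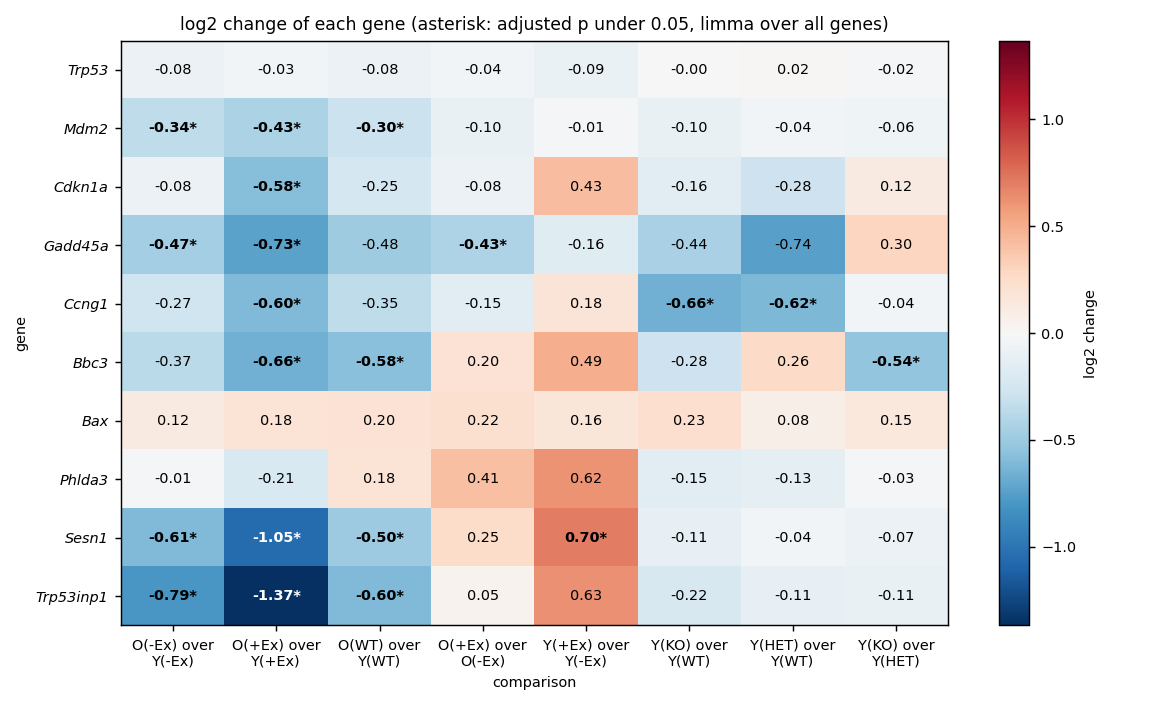
log2 change (colour and number) of the 10 genes (rows) in 8 comparisons (columns); an asterisk marks an adjusted p under 0.05 by limma over all genes. The columns of age hold 4, 7 and 4 called genes, all lower in old mice, and Sesn1 in young free-wheel against young locked-wheel mice is the called gene with a positive sign.

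In mice with a free wheel the age comparison called 7 of 10 genes lower in old mice and none higher, where 17.7% of all genes were called lower and 38.2% in either direction. They were Mdm2, Cdkn1a, Gadd45a, Ccng1, Bbc3, Sesn1 and Trp53inp1. The median log2 change of the 10 genes was -0.59, against 0.01 for all genes. The same 7 genes had separate ranges in the 2 groups, where 40.5% of all genes did.

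Sesn1 had 5.92, 6.55, 6.41, 7.68 and 6.95 RPKM in the 5 old free-wheel mice, against 14.4, 14.1 and 12.9 RPKM in the 3 young free-wheel mice. Every old mouse was well below every young one. The means were 6.70 ± 0.658 RPKM in old and 13.8 ± 0.792 RPKM in young mice (SD, n = 5 and 3), a 2.07-fold lower level in old mice (log2 change -1.05 ± 0.15, limma adjusted p = 1.67e-05). Trp53inp1 had 2.59, 3.12, 1.68, 3.38 and 3.79 RPKM in old and 7.68, 7.41 and 6.67 RPKM in young free-wheel mice. This was the largest change among the 10 genes in any comparison, 2.58-fold lower in old mice (log2 change -1.37 ± 0.26, limma adjusted p = 3.75e-04).

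Gadd45a had 159, 173, 121, 129 and 144 RPKM in old free-wheel mice, against 211, 244 and 266 RPKM in young free-wheel mice. The old mice lay below all young ones, with a log2 change of -0.73 ± 0.12 (limma adjusted p = 1.08e-04). Mdm2 had 20.7, 20.9, 21.4, 19.9 and 19.2 RPKM in old and 28.8, 27.4 and 26.4 RPKM in young mice. The spread within each group was small beside the gap, and the log2 change was -0.43 ± 0.10 (limma adjusted p = 0.00241). The calls of Sesn1, Trp53inp1, Gadd45a and Mdm2 held with each of the 8 libraries left out in turn.

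The remaining 3 calls were less secure. Cdkn1a had 243, 221, 263, 253 and 270.0 RPKM in old and 442, 395 and 297 RPKM in young free-wheel mice, with 1 young mouse near the old range (log2 change -0.58 ± 0.21, limma adjusted p = 0.0302). It was not called without old free-wheel replicate 2 (limma adjusted p = 0.0597), young free-wheel replicate 1 (0.147) or young free-wheel replicate 2 (0.0966). Ccng1 had 7.32, 6.33, 8.10, 6.62 and 9.65 RPKM in old and 10.95, 12.4 and 10.9 RPKM in young mice, all old mice being below all young ones (log2 change -0.60 ± 0.18, limma adjusted p = 0.01). Its limma adjusted p was 0.0525 without young free-wheel replicate 2. Bbc3 had 2.86, 2.59, 2.67, 2.26 and 2.01 RPKM in old and 4.39, 3.10 and 4.32 RPKM in young mice (log2 change -0.66 ± 0.25, limma adjusted p = 0.0425). It was the weakest call: it held in 3 of 8 omissions, and was lost without old free-wheel replicates 2, 4 or 5 or young free-wheel replicates 1 or 3 (limma adjusted p = 0.0537, 0.0736, 0.0861, 0.147 and 0.138).

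Trp53, Bax and Phlda3 did not pass in this comparison. Trp53 had 68.0, 72.2, 85.5, 61.5 and 69.6 RPKM in old and 75.2, 70.2 and 72.4 RPKM in young free-wheel mice, so that the old values spanned the young ones (log2 change -0.03, 95% interval -0.25 to 0.18). Bax was at 24.4 to 30.4 RPKM in old and 21.1 to 25.1 RPKM in young mice, and Phlda3 at 12.5 to 20.4 RPKM and 16.1 to 20.8 RPKM. Of the 25 dissociation genes 2 were higher and 16 lower in old free-wheel mice, with sums of 7809.6 to 10031 RPKM in old and 12229 to 13661 RPKM in young mice. The myofibre genes summed to 34.9 to 119.6 RPKM in old and 192 to 361 RPKM in young mice, without overlap. Of the 19 cell cycle genes 1 was higher and 10 were lower, and of the 10 satellite cell genes 1 was higher and 5 were lower. Some markers of other cells were higher in old free-wheel mice, in 4 lists whose sums did not overlap. They were 2 of 4 fibro-adipogenic genes (156 to 232 RPKM in old and 98.2 to 106 RPKM in young). Of 5 endothelial genes 3 were higher (67.1 to 98.9 RPKM in old and 55.4 to 61.8 RPKM in young). Of 4 Schwann cell genes 3 were higher (24.1 to 41.4 RPKM in old and 16.7 to 17.9 RPKM in young). Of 4 keratinocyte genes 2 were higher (3.38 to 4.39 RPKM in old and 1.59 to 2.18 RPKM in young). Pdgfra averaged 0.823 RPKM in old and 0.880 RPKM in young free-wheel mice. No haematopoietic gene was called. The 3 measured ones had sums that overlapped (49.8 to 80.3 RPKM in old and 38.6 to 55.9 RPKM in young). The part of these lists in the result was not tested.

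Old against young WT mice of the Ccnd1 cohort gave 4 of 10 genes lower and none higher, where 7.76% of all genes were called lower and 15.8% in either direction. They were Mdm2, Bbc3, Sesn1 and Trp53inp1, with log2 changes of -0.30, -0.58, -0.50 and -0.60. Bbc3 had 2.00, 2.13 and 1.84 RPKM in old and 2.90, 3.09 and 2.90 RPKM in young WT mice. The 3 old mice lay below the 3 young ones (limma adjusted p = 0.0108), and this call held with any of the 6 libraries left out, with limma adjusted p of 0.0205 to 0.0475, but was lost in a fit of all 36 libraries (limma adjusted p = 0.0956). These 4 genes had separate ranges, where 37% of all genes did.

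Sesn1 had 6.56, 5.60 and 5.14 RPKM in old and 7.91, 7.82 and 8.65 RPKM in young WT mice (limma adjusted p = 0.0334). Mdm2 had 20.5, 25.4 and 20.8 RPKM in old and 27.0, 27.2 and 27.6 RPKM in young WT mice (limma adjusted p = 0.0435). Trp53inp1 had 3.29, 2.74 and 2.75 RPKM in old and 4.32, 4.73 and 4.22 RPKM in young WT mice (limma adjusted p = 0.0462). The groups did not overlap in any of the 3 genes, yet these calls rested on single libraries. With each library left out in turn, Sesn1 and Mdm2 were each called in 1 of 6 fits and Trp53inp1 in none, with highest limma adjusted p of 0.125, 0.151 and 0.130.

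Other measures moved with age in WT mice too. Of the 25 dissociation genes 4 were lower and none higher, with sums of 8640.4 to 9829.7 RPKM in old and 10411 to 13051 RPKM in young WT mice that did not overlap. Of the 19 cell cycle genes 6 were lower and none higher, and their sums overlapped (131 to 177 RPKM in old and 144 to 203 RPKM in young WT mice). The satellite cell list had 3 of 10 genes lower. Of the fibro-adipogenic genes 2 of 4 were higher, with sums of 139 to 256 RPKM in old and 95.1 to 125 RPKM in young WT mice that did not overlap, as was 1 of 5 endothelial genes. Their part in the result was not tested.

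The wheel was then compared within old mice, free against locked. Gadd45a was the 1 gene of the 10 called, and it was lower, where 3.3% of all genes were called lower and 7.39% in either direction. It had 159, 173, 121, 129 and 144 RPKM in old free-wheel mice, against a lowest, median and highest value of 167, 190.4 and 251 RPKM in old locked-wheel mice. All 5 free-wheel mice lay below the locked-wheel mean, with an overlap of 1 mouse into the locked-wheel range. The means were 145 ± 21.2 RPKM with a free wheel (SD, n = 5) and 195 ± 28.2 RPKM with a locked wheel (SD, n = 7), or 1.34-fold lower (log2 change -0.43 ± 0.10, limma adjusted p = 0.0135). Without old free-wheel replicate 3, the lowest of its group, the limma adjusted p was 0.0525, and in a fit of all 36 libraries it was 0.0521.

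The 9 other genes did not pass for the wheel in old mice. Sesn1 had 5.92, 6.55, 6.41, 7.68 and 6.95 RPKM with a free wheel, against 5.16, 5.39 and 6.80 RPKM (lowest, median and highest) with a locked wheel, a log2 change of 0.25 (limma adjusted p = 0.196). Phlda3, whose product competes with Akt for membrane lipids, had 20.4, 12.5, 19.9, 15.5 and 12.9 RPKM with a free wheel, against 9.12, 11.4 and 19.01 RPKM with a locked wheel, a log2 change of 0.41 with a 95% interval of -0.02 to 0.84 (limma adjusted p = 0.235). Both groups spread widely and overlapped. Cdkn1a differed by -0.08 on the log2 scale, with a 95% interval of -0.42 to 0.26. None of the 10 genes had separate ranges, where 3.94% of all genes did. In these libraries 4 of the 19 cell cycle genes were higher and 1 lower with a free wheel, with sums of 132 to 153 RPKM with a free wheel and 138 to 169 RPKM with a locked wheel. Of 5 endothelial genes 1 was higher (67.1 to 98.9 RPKM with a free wheel and 52.0 to 82.8 RPKM with a locked wheel), of 10 satellite cell genes 1 was lower, and of the 25 dissociation genes 1 was higher and 1 lower. Their part in the Gadd45a result was not tested.

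In young mice the free wheel went with a higher level of Sesn1, the 1 gene of the 10 called, where 0.406% of all genes were called higher and 1.12% in either direction. Sesn1 had 14.4, 14.1 and 12.9 RPKM in the 3 young free-wheel mice, against 6.28, 8.77 and 11.01 RPKM (lowest, median and highest) in the 6 young locked-wheel mice. The ranges were separate. The means were 13.8 ± 0.792 RPKM and 8.70 ± 1.89 RPKM in these groups (SD), or 1.62-fold higher with a free wheel (log2 change 0.70 ± 0.14, limma adjusted p = 0.019). The call was lost without young free-wheel replicate 1 (limma adjusted p = 0.131) or replicate 2 (0.143), and when the young groups alone were fitted (0.114).

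Trp53inp1 also had separate ranges for the wheel in young mice, as did 9.55% of all genes, with 7.68, 7.41 and 6.67 RPKM with a free wheel against 2.95, 4.99 and 6.19 RPKM with a locked wheel (log2 change 0.63 ± 0.25). It did not pass (limma adjusted p = 0.225). Phlda3 had 18.8, 20.8 and 16.1 RPKM with a free wheel, against 7.27, 12.4 and 18.5 RPKM with a locked wheel (log2 change 0.62, limma adjusted p = 0.225). Cdkn1a had 442, 395 and 297 RPKM with a free wheel, against 158, 307 and 374 RPKM with a locked wheel, and the highest locked-wheel mice overlapped the free-wheel mice (log2 change 0.43, limma adjusted p = 0.302). The median log2 change of the 10 genes was 0.30, against 0.00 for all genes. Of the 19 cell cycle genes 3 were higher and 1 lower with a free wheel in young mice, with sums of 165 to 194 RPKM with a free wheel and 151 to 183 RPKM with a locked wheel. Of 4 Schwann cell genes 1 was lower, with sums of 16.7 to 17.9 RPKM with a free wheel and 19.1 to 28.8 RPKM with a locked wheel that did not overlap. No gene of the dissociation, satellite, endothelial, haematopoietic, fibro-adipogenic, myofibre or keratinocyte lists was called by limma in this comparison. The part of the cell cycle and Schwann cell genes in the Sesn1 result was not tested.

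Whether the wheel change differed between ages was tested as old minus young. None of the 10 genes was called by limma, 1 had an unadjusted p under 0.05 (Sesn1), and 0.00882% of all genes, a single gene, were called, while 960 (8.47%) had an unadjusted p under 0.05. Sesn1 differed by -0.44 ± 0.18 on the log2 scale (SE, unadjusted p = 0.0251, limma adjusted p = 0.553). Trp53inp1 differed by -0.58 with a 95% interval of -1.26 to 0.11, Cdkn1a by -0.50 with -1.04 to 0.03, and Gadd45a by -0.26 with -0.59 to 0.06. A called wheel change in old mice alone or young mice alone is thus not shown to be particular to that age. The comparisons of age with a free wheel and of the wheel share libraries, so their values are not separate evidence.

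In the Ccnd1 cohort, KO against young WT mice called Ccng1 alone of the 10 genes, and it was lower, where 1.94% of all genes were called lower and 6.99% in either direction. On the deposited scale 573 genes were called higher and 220 lower, and 426 and 271 after median-of-ratios scaling. Ccng1 had 7.19, 7.61, 6.29, 5.95 and 6.52 RPKM in the 5 KO mice, against 8.78, 12.7 and 10.5 RPKM in the 3 young WT mice. All KO mice lay below all WT mice, and the WT mice spread more widely than the KO mice. The means were 6.71 ± 0.675 RPKM in KO and 10.6 ± 1.94 RPKM in young WT mice (SD), or 1.58-fold lower in KO (log2 change -0.66 ± 0.13, limma adjusted p = 0.0117). Without young WT replicate 2 or 3 the limma adjusted p was 0.0651 or 0.0518.

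Mdm2 and Bbc3 also had separate ranges in KO and young WT mice, as did 17.8% of all genes, but did not pass. Bbc3 had 2.27, 2.50, 2.15, 2.75 and 2.57 RPKM in KO and 2.90, 3.09 and 2.90 RPKM in young WT mice (log2 change -0.28, limma adjusted p = 0.151). Mdm2 had 26.8, 26.4, 24.5, 24.1 and 25.6 RPKM in KO and 27.0, 27.2 and 27.6 RPKM in young WT mice (log2 change -0.10, limma adjusted p = 0.496). Cdkn1a, whose product binds cyclin D complexes as well as Cdk2, had 263, 321, 305, 219 and 274 RPKM in KO and 259, 332 and 331 RPKM in young WT mice. Its groups overlapped, and the 95% interval of its log2 change was -0.56 to 0.25. Of the 19 measured cell cycle genes 8 were lower and none higher in KO. They summed to 116 to 154 RPKM in KO and 144 to 203 RPKM in young WT mice. Of 10 satellite cell genes 1 was higher and none lower. The 4 fibro-adipogenic genes, none called, summed to 120.2 to 167 RPKM in KO and 95.1 to 125 RPKM in young WT mice. Their part in the result was not tested.

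HET against young WT mice again called Ccng1 alone of the 10 genes, where 3.4% of all genes were called lower and 5.39% in either direction (225 higher and 386 lower, or 274 and 187 after median-of-ratios scaling). Ccng1 had 7.60, 5.97, 7.73 and 6.30 RPKM in HET mice, against the young WT values given above, and the groups did not overlap, as for 21.2% of all genes. It was 1.54-fold lower in HET (log2 change -0.62 ± 0.13, limma adjusted p = 0.0199). KO and HET are both set against the same 3 young WT mice. Among those, Ccng1 was highest in replicate 2, and without it the limma adjusted p for HET was 0.117; without young WT replicate 3, HET replicate 2 or HET replicate 4 it was 0.0517, 0.0559 or 0.0604. The keratinocyte genes summed to 52.7 to 145 RPKM in HET and 1.48 to 2.07 RPKM in young WT mice, and their part in this result was not tested. Of the 10 satellite cell genes 3 were lower in HET, and of the 25 dissociation genes 1 was higher. Their part was not tested either. In KO mice, where Ccng1 averaged 6.71 ± 0.675 RPKM, that sum was 1.83 to 2.68 RPKM.

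Gadd45a had the largest log2 difference of the 10 genes between HET and young WT mice, -0.74 ± 0.23, without passing (limma adjusted p = 0.0714). It did pass in 1 of 7 alternative settings (limma adjusted p = 0.0153) and in 1 of 7 fits with a library left out (limma adjusted p = 0.0494). It had 208, 147, 162 and 133 RPKM in HET and 335, 289 and 196 RPKM in young WT mice, so that 1 HET mouse lay above the lowest WT mouse. In KO mice it had 205, 273, 146, 185 and 193 RPKM, a log2 change against young WT of -0.44 (limma adjusted p = 0.217).

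KO against HET mice called Bbc3 alone of the 10 genes, where 0.891% of all genes were called lower and 6.04% in either direction (584 higher and 101 lower, or 199 and 131 after median-of-ratios scaling). Bbc3 had 2.27, 2.50, 2.15, 2.75 and 2.57 RPKM in KO mice, against 3.82, 3.87, 2.91 and 3.72 RPKM in HET mice. The ranges were separate, as for 10.1% of all genes, though HET replicate 3 lay close to the KO mice. The means were 2.45 ± 0.243 RPKM in KO and 3.58 ± 0.45 RPKM in HET mice (SD), or 1.46-fold lower in KO (log2 change -0.54 ± 0.11, limma adjusted p = 0.0106). The call held with each of the 9 libraries left out, and was lost in a fit of all 36 libraries (limma adjusted p = 0.0823). The keratinocyte sums of 1.83 to 2.68 RPKM in KO and 52.7 to 145 RPKM in HET mice stand beside it. The fibro-adipogenic genes, none called, summed to 120.2 to 167 RPKM in KO and 97.6 to 114 RPKM in HET mice. Lower in KO were 3 of 19 cell cycle genes, and higher were 1 of 10 satellite cell and 1 of 25 dissociation genes. The part of these lists in the Bbc3 result was not tested. Trp53 was at 64.9 to 89.1 RPKM in KO, 72.2 to 84.2 RPKM in HET and 68.8 to 83.3 RPKM in young WT mice, with no call.

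**Figure D3:**
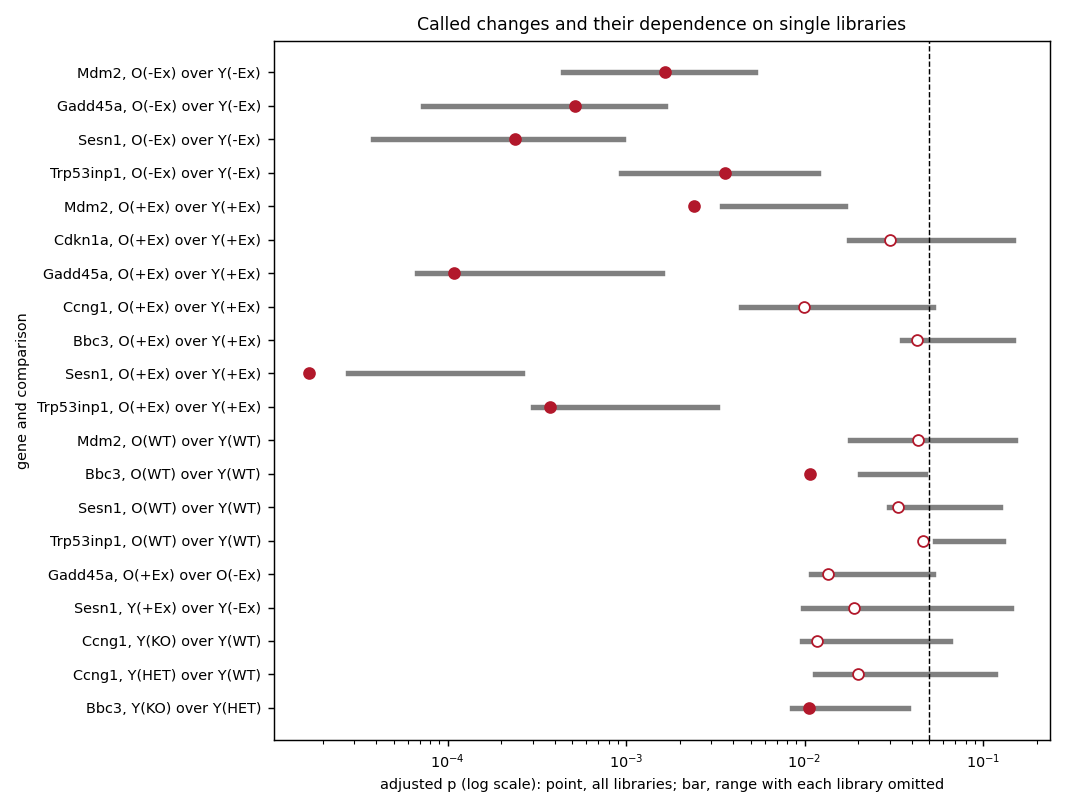
Limma adjusted p (horizontal, log scale) of the 20 called changes (rows, with the gene and the groups compared) with all libraries (points) and its range when each library of the 2 groups is left out in turn (bars). The dashed line is 0.05; filled points kept the call in every omission, as the 4 changes of old over young locked-wheel mice did, and open points lost it in at least 1.

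The rest of the pathway was described with a list of 77 other genes, of which 63 were measured: 17 of 23 regulators of p53, 36 of 41 other p53 target genes and 10 of 13 family members of the 10 genes. Age with a locked wheel called 9 of the 63 higher and 19 lower in old mice, with a median log2 change of -0.10, and age with a free wheel called 8 higher and 23 lower, with a median of -0.15. The target genes split both ways, 5 higher and 11 lower with a locked wheel and 5 and 12 with a free wheel. Of all genes 20.5% were called higher and 17.8% lower with a locked wheel, and 20.5% and 17.7% with a free wheel.

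Perp, a p53 target that is also a desmosome gene of epithelia, was the most raised: 8.07 ± 1.33 RPKM in old and 1.72 ± 0.413 RPKM in young locked-wheel mice, 4.77-fold higher in old mice (limma adjusted p = 4.19e-07). The keratinocyte genes summed to 2.79 to 5.70 RPKM in these old and 1.59 to 2.47 RPKM in these young mice, and their part was not tested. Pmaip1, which encodes the BH3-only protein NOXA, averaged 11.1 ± 3.41 RPKM in old and 29.3 ± 6.04 RPKM in young locked-wheel mice, 2.72-fold lower in old mice (limma adjusted p = 4.14e-06). Aen, an apoptosis-enhancing nuclease gene, averaged 15.9 ± 2.05 RPKM in old and 10.7 ± 1.45 RPKM in young mice, and Trp53inp2, the autophagy gene related to Trp53inp1, 23.9 ± 1.65 RPKM and 34.8 ± 2.33 RPKM (limma adjusted p = 1.27e-04 and 9.48e-07). With a free wheel the same 4 genes had log2 changes of 2.50 for Perp, 0.79 for Aen, -1.72 for Pmaip1 and -0.55 for Trp53inp2. Mdm2, Sesn1 and Trp53inp1 were thus lower in old mice beside targets that were higher.

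**Figure D4:**
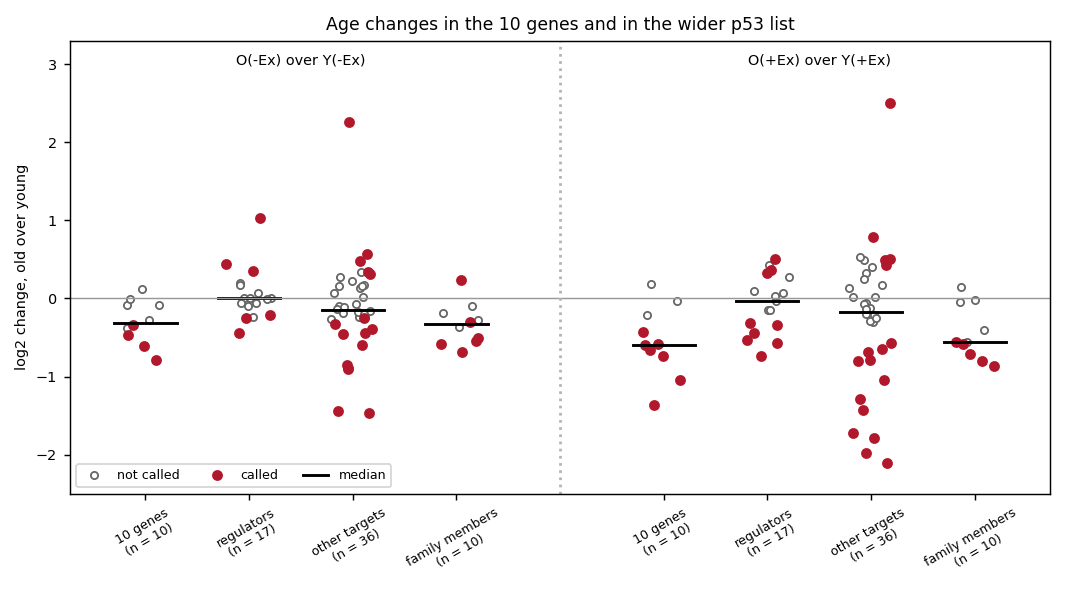
log2 change of old over young mice (vertical axis) for each of the 10 genes and for the measured regulators, other targets and family members (points; filled where called by limma), with a locked wheel (left) and a free wheel (right); the bar is the median. Called genes lie on both sides of 0 in the target list, whose highest point is Perp (2.25 and 2.50), while every called gene among the 10 lies below 0.

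Age in WT mice called 3 of the 63 genes higher and 6 lower, against 8.03% and 7.76% of all genes. Perp averaged 8.62 ± 3.46 RPKM in old and 1.83 ± 0.846 RPKM in young WT mice, and Pmaip1 10.6 ± 2.70 RPKM and 30.1 ± 11.6 RPKM (limma adjusted p = 0.00383 and 0.0137). The keratinocyte genes summed to 2.39 to 10.6 RPKM in old and 1.48 to 2.07 RPKM in young WT mice, without overlap. None of them was called, and their part in the Perp result was not tested. Ckap2, a gene of the mitotic spindle, had a log2 change of -1.34, and Trp53rka, a p53 kinase gene with a near-identical copy that makes its counts uncertain, one of 1.14. Without old WT replicate 3 or young WT replicate 2, 3 of the 63 genes were called in all.

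Few of these genes were called for the wheel: in old mice 2 were higher and 1 was lower, against 4.09% and 3.3% of all genes. There Chek2, the kinase that signals DNA damage to p53, averaged 1.71 ± 0.168 RPKM with a free wheel and 1.13 ± 0.186 RPKM with a locked wheel (limma adjusted p = 0.0271). Abhd4 was also higher with a free wheel (33.4 ± 3.45 RPKM against 24.4 ± 5.44 RPKM) and Trp53bp2, which encodes the p53-binding protein ASPP2, was lower (13.9 ± 1.98 RPKM against 18.97 ± 2.57 RPKM), with limma adjusted p of 0.0309 and 0.006. With single libraries left out this count of 3 ranged from 1 to 5: it was 1 without old free-wheel replicate 2 or 3 and 5 without old free-wheel replicate 5 or old locked-wheel replicate 1. In young mice no gene of the 63 was called by limma for the wheel, where 0.406% of all genes were called higher and 0.714% lower. There 17 of the 63 had an unadjusted limma p under 0.05, against 15.8% of all genes. For the difference between ages none was called either, and 12 of the 63 had an unadjusted limma p under 0.05, against 8.47% of all genes.

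In KO against young WT mice 2 of the 63 genes were called higher and 3 lower, against 5.05% and 1.94% of all genes. Cdkn1c, the p57 relative of Cdkn1a, averaged 17.8 ± 1.77 RPKM in KO and 41.6 ± 21.3 RPKM in young WT mice, and Ckap2 0.679 ± 0.133 RPKM and 2.13 ± 0.803 RPKM (limma adjusted p = 0.0223 and 0.00756). Ppp1r13b, which encodes ASPP1, and Trp53rka were higher, with log2 changes of 0.58 and 0.73. The count of 5 fell to 1 without young WT replicate 2 or 3, to 2 without KO replicate 3 or 5 and to 3 without young WT replicate 1. In HET against young WT mice 5 were higher and 2 lower, against 1.98% and 3.4%. Perp averaged 16.8 ± 4.83 RPKM in HET and 1.83 ± 0.846 RPKM in young WT mice, and Sfn, the epithelial 14-3-3 sigma gene, 19.8 ± 8.82 RPKM and 3.67 ± 0.863 RPKM, in the libraries with high keratinocyte genes. Kat5, an acetyltransferase of p53, and Cdkn1c were lower in HET (log2 changes -0.37 and -1.06). The count of 7 fell to 2 without young WT replicate 2 and to 4 without HET replicate 1, 2 or 4. KO against HET mice had 1 of the 63 higher and 2 lower, against 5.15% and 0.891% of all genes: Trp53rka was higher (log2 change 1.08), and Sfn and Perp were lower (-2.96 and -2.58).

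The genes most like a member were ranked by Pearson r of log2 group means over the 8 groups, among 6313 genes that averaged 5 RPKM or more. Nearest to Mdm2 were Nek9, Adam9 and Pmaip1 (r = 0.996, 0.994 and 0.992). Nearest to Cdkn1a were Brd8, Porcn and Ngly1 (r = 0.972, 0.971 and 0.964), and nearest to Trp53 were Hif1a, Ahsa2 and 1810013L24Rik (r = 0.990, 0.979 and 0.979). With 8 points per gene and so many genes compared, these values describe the table. The points share the authors' adjustment.

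The authors' deposited table also gives each gene's correlation coefficient with Ccnd1. In the authors' deposited table Phlda3 stood at 0.763, rank 36 of 11337 from the highest, Ccng1 at 0.471 and Sesn1 at 0.396. The same deposited table gives 0.267 for Cdkn1a, 0.0165 for Gadd45a, -0.138 for Mdm2 and -0.206 for Trp53. Pearson's r over the 36 libraries did not return these coefficients (largest gap 0.19 on the linear scale), and which samples lie behind them is not stated in the labels.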

How the data were processed

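The authors deposited 1 table of RPKM values for 11337 genes in 36 libraries, already adjusted and without zeros, with a correlation score per gene. The submitters' processing notes name Trim Galore, STAR, featureCounts (Subread) and the build mm10, with no versions and no strand setting. Genes that overlap others (Gadd45a, Cdkn1a, Bax) or have a processed pseudogene (Trp53) are therefore uncertain. Per the labels, each library is 1 mouse.

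Log2 values, without a pseudocount, were fitted with limma 3.58.1 in R 4.3.3, with 1 mean per group within each cohort and eBayes with trend and robust settings. Benjamini-Hochberg adjustment ran over 11337 genes, with calls at 0.05; 9 comparisons were made. The steps were tested on simulated data in which libraries varied independently, so the 6 missing directions were not part of that test. Groups came from the sample titles. The 10 genes and the lists were chosen with earlier results of these data known. Up to 2 called genes in each direction, those of lowest p, are named from the wider list. GENCODE M21 gave the exons and RefSeq the promoter sequences. Alternatives were scaling, pseudocount, a filter on low values, the samples in the fit, moderation, a replicate block and leaving out each library.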

Additional observations from a re-analysis of the deposited data

Results flagged for a closer look

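Bbc3 in HET replicate 3 stood apart from the other libraries of its group. It was the lowest of the 4 HET libraries at 2.91 RPKM, and the others lay at 3.82, 3.87 and 3.72 RPKM. A Dixon test was made of the 10 genes in the groups of 4 or more libraries, 50 in all, and chance flags about 1 in 20. Without this library the log2 change of Bbc3 in KO against HET mice was -0.64 (limma adjusted p = 0.00855).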

How the results depend on the processing

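Of the alternatives tried, median-of-ratios scaling, a pseudocount of 1 and a filter at a mean of 1 RPKM changed no count of called genes among the 10 by over 1.5 times. A fit of all 36 libraries called 0 of the 10 for the wheel in old mice, 2 for HET against WT, 0 for KO against HET and 2 for age in WT mice (Bbc3 and Trp53inp1 being lost), and 5, 1 and 3 genes of the wider list for the wheel in old mice, the wheel in young mice and KO against WT. Fitting only the groups compared called 0 of the 10 for the wheel in young mice and 0 for HET against WT, and 3 and 5 of the wider list for KO against WT and age in WT mice. Without trend and robust settings 2 of the 10 were called for age in WT mice. The deviations of same-numbered libraries had r from -0.26 to 0.30 (44 pairs, median 0.014, 8 over 0.1). Those of differently numbered libraries had r from -0.42 to 0.29 (200 pairs, median -0.0011, 32 over 0.1). The values lack 6 directions, so they cannot show whether the numbers pair mice. The paired fit with the replicate block called 0 of the 10 for the wheel in young mice, 0 for KO against WT, 0 for HET against WT and 2 for age in WT mice, and 0, 3 and 5 of the wider list for KO against WT, HET against WT and age in WT mice. With the block, Cdkn1a and Bbc3 were also not called for age with a free wheel (limma adjusted p = 0.0518 and 0.0834), and small uncalled changes reversed for Phlda3 in age with a locked wheel (0.054), Trp53 in KO against WT (0.049) and KO against HET (0.017) and Trp53inp1 in HET against WT (0.021). Scaling reversed Mdm2 (0.013) and Sesn1 (0.015) in HET against WT. With single libraries left out, the number of the 10 called ran from 0 to 1 for the wheel in old mice, the wheel in young mice, KO against WT and HET against WT, and from 1 to 2 for age in WT mice. On the wider list it ran from 1 to 5 and 0 to 1 for the wheel in old mice and in young mice, 1 to 7 for KO against WT, 2 to 7 for HET against WT and 3 to 9 for age in WT mice. Uncalled changes that took both signs, with their range of log2 change, were Bax (-0.016 to 0.12) and Trp53 (-0.018 to 0.10) for the wheel difference between ages, Ccng1 (-0.10 to 0.021), Phlda3 (-0.072 to 0.037), Sesn1 (-0.14 to 0.059), Trp53 (-0.082 to 0.032) and Trp53inp1 (-0.22 to 0.00027) for KO against HET, Cdkn1a (-0.24 to 0.0086) and Phlda3 (-0.16 to 0.11) for age with a locked wheel, Mdm2 (-0.064 to 0.026) for the wheel in young mice, Sesn1 (-0.17 to 0.030) and Trp53 (-0.053 to 0.084) for HET against WT, Trp53 (-0.078 to 0.060) for KO against WT, Trp53 (-0.10 to 0.018) for age with a free wheel, Trp53 (-0.11 to 0.012) and Trp53inp1 (-0.059 to 0.23) for the wheel in old mice.

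Over all genes, 127 were called for the wheel in young mice, against 22 when only those groups were fitted, 14 with the block and 84 without trend and robust settings. For KO against WT 793 stood against 379 and 1, and for HET against WT 611 against 300 and 179, with only those groups and with the block. For KO against HET 685 stood against 330 after scaling, 327 with only those groups and 262 with the block. With 1 library left out the counts ran from 351 to 923 for the wheel in old mice, from 5 to 205 for the wheel in young mice, from 98 to 938 for KO against WT, from 68 to 621 for HET against WT and from 873 to 1366 for age in WT mice. Where the causes of these shifts were not shown by the construction of the alternative, the cause was not tested. Depth per library is unknown, so no counting error could be given, and 3 libraries in a group left calls dependent on single mice.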

Other observations

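Likeness among the 10 genes was described by Pearson r of log2 group means over the 8 groups, which share the authors' adjustment and, within a cohort, the sort. Of 45 pairs, 12 had r above 0.7 and 3 below -0.7, with a median of 0.46. The highest was Sesn1 with Trp53inp1 (r = 0.97), followed by Bbc3 with Sesn1 (0.88) and Mdm2 with Trp53inp1 (0.86), while Cdkn1a had 0.86 with each of Sesn1 and Trp53inp1. Genes are not independent replicates, and no test was made.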
